A study of Mus musculus with 3 samples.

Results

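The respiratory chain genes were taken as every row of the expression table whose symbol starts with Nduf and a subunit letter and number, Uqcr, Cox4 to Cox8 or mt-, or is one of Sdha, Sdhb, Sdhc and Sdhd. This rule found 81 of 33353 genes, of which 68 are nuclear and 13 are mitochondrially encoded. Among the nuclear members, 38 have complex I symbols, 4 complex II, 8 complex III and 18 complex IV. The 13 mitochondrial members comprise 7 genes of complex I, 1 of complex III, 3 of complex IV and 2 of complex V.

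The data are single cell RNA-seq profiles of tdTomato-positive cells from the longitudinal muscle and myenteric plexus of the small intestine, from 3 Ednrb-/- mice at postnatal day 14, with 1 droplet library per mouse. Ednrb-/- mice lack the endothelin receptor type B and model Hirschsprung disease, in which the distal bowel has no enteric neurons. Every mouse carried Wnt1-Cre and the GCaMP5-tdT reporter, so the sort was aimed at cells of the Cre-expressing neural crest lineage. The paper reports that mesenchymal and hematopoietic cells were captured as well. The labels give the strain as C57BL/6, whereas the methods describe Ednrb and reporter alleles on a mixed B6; 129 background, and no wild-type cells were analysed here. After filtering by the authors for neurons 2060 cells remained, namely 354, 1050 and 656 cells of mice 1, 2 and 3 with a median of 3734.5, 9599.5 and 9578.5 UMIs (unique molecular identifiers, each counting 1 captured transcript). Levels are given as UMIs per 10000 UMIs of the cells summed. The authors removed cells with a high mitochondrial share, and the highest share in a remaining cell was 12.4%, which puts a ceiling on the mitochondrial members. They also kept only cells with 1500 to 5000 genes detected, which limits the range of depth.

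The respiratory chain passes electrons from NADH and succinate to oxygen and pumps protons across the inner mitochondrial membrane, and complex V uses that gradient to make ATP. Complexes I, III and IV are built from subunits of both genomes, while the succinate dehydrogenase of complex II is encoded by the nucleus alone. Neurons depend heavily on this pathway for firing and for synaptic transmission.

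A group of cells was defined for each of 5 genes. Neurod4-positive cells had at least 1 UMI of Neurod4, a transcription factor of differentiating neurons, and Sox10-positive cells at least 1 UMI of Sox10, a factor of glia and their progenitors. Cartpt-high cells had a deposited value of at least 2.5 for Cartpt, which encodes the CART peptide. Nos1-only cells had Nos1, the neuronal nitric oxide synthase, and no Chat, and Chat-only cells had Chat, the acetylcholine-synthesising enzyme, and no Nos1. The groups overlap: of the 284 Cartpt-high cells, 243 (85.6%) were also Nos1-only and 176 (62.0%) Sox10-positive. Comparisons between groups therefore share cells and are not independent.

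Neuron markers were present in every group with at least 10 cells, at a summed 54.6 to 102.8 UMIs per 10000 over 10 markers. Sox10 was found in 41.8%, 54.5% and 56.1% of all deposited cells of the 3 mice, in 73, 237 and 163 of them at a single UMI. Glial markers summed to 25.9, 19.6 and 17.2 UMIs per 10000 in Sox10-positive cells against 7.28, 6.57 and 4.14 in cells of none of the 5 groups, and neuron markers to 58.1, 61.8 and 59.3 against 76.5, 72.2 and 75.4. The glial list holds Sox10, which chose these cells. Its other 9 markers summed to 21.5, 17.3 and 14.9 in Sox10-positive cells against 7.61, 5.63 and 3.96 in the other cells. Smooth muscle markers summed to 69.8 per 10000 in mouse 1 against 15 and 10.3 in mice 2 and 3, and mouse 1 also had the lowest depth. Only 2 cell barcodes were shared between libraries.

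Summed over all cells, the nuclear members made up 216.6, 266.8 and 262.5 UMIs per 10000 in mice 1, 2 and 3, a mean of 248.6 ± 27.8 (SD, n = 3). The mitochondrial members made up 294.9, 324.1 and 359.6 per 10000, a mean of 326.2 ± 32.4 (SD, n = 3). The ratio of nuclear to mitochondrial UMIs was thus below 1 in every mouse, at 0.734, 0.823 and 0.730.

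Nuclear and mitochondrial members parted between the cell groups. Cartpt-high cells had 283.7, 497.8 and 524.5 nuclear UMIs per 10000 in mice 1, 2 and 3, against 207.8, 218.6 and 211.8 in the other cells of the same mice. Their mitochondrial members stood at 281.8, 186.6 and 183.0 per 10000, against 296.6, 352.7 and 393.8 in the other cells. The nuclear sum was therefore 1.37, 2.28 and 2.48 times, and the mitochondrial sum 0.950, 0.529 and 0.465 times, that of the other cells. In mouse 1 the mitochondrial sums of the 2 sides lay close together.

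The ratio of nuclear to mitochondrial UMIs in Cartpt-high cells was 1.01, 2.67 and 2.87, and in each mouse it was above the ratio of the other 4 groups. It was 0.861, 1.03 and 0.935 in Nos1-only cells and 0.757, 0.942 and 0.898 in Sox10-positive cells. Chat-only cells had the lowest ratio of the groups, at 0.674, 0.552 and 0.370, with 304.0, 383.7 and 460.2 mitochondrial UMIs per 10000. Neurod4-positive cells numbered 60 and 48 in mice 2 and 3 and had ratios of 0.741 and 0.711, while mouse 1 held 1 such cell and is left out of every Neurod4 value.

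**Figure D1:**
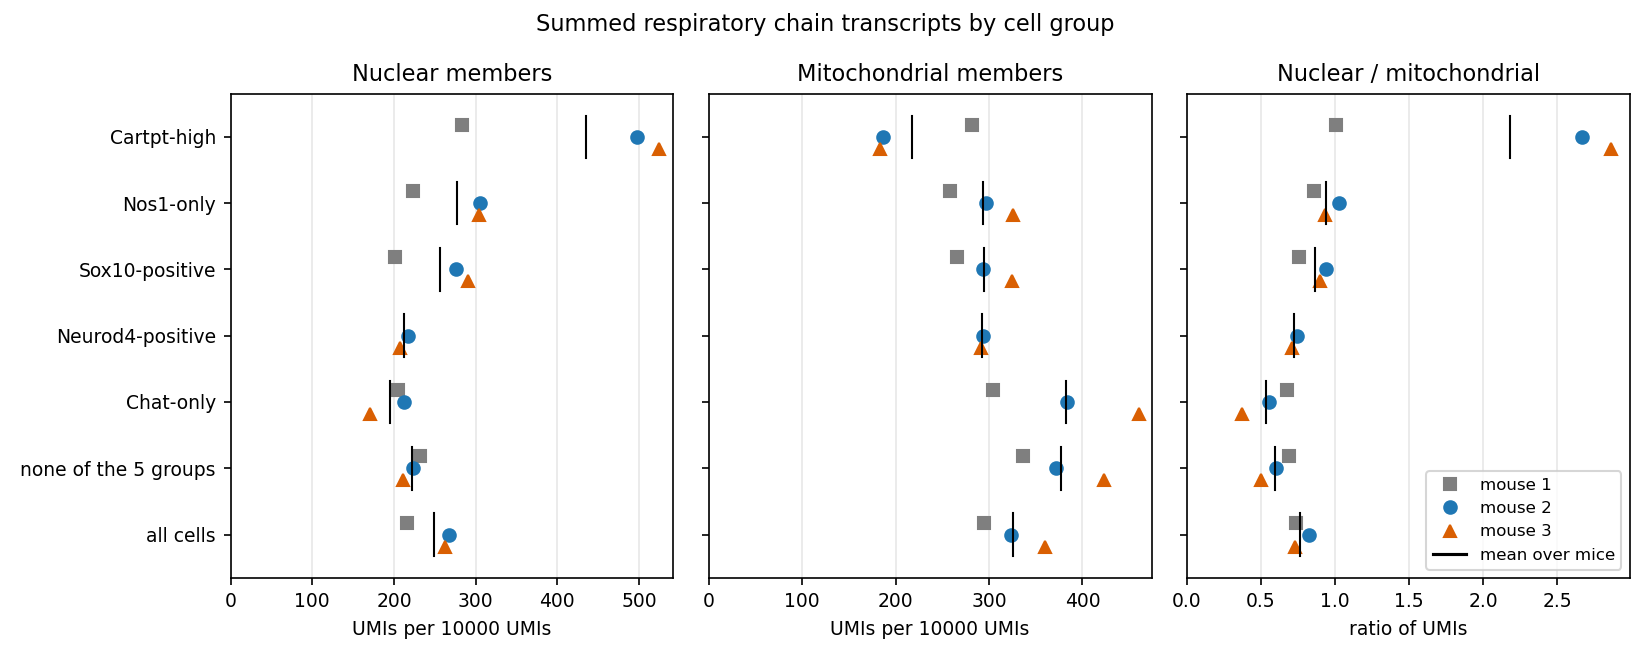
Summed nuclear members, summed mitochondrial members (both in UMIs per 10000 UMIs) and their ratio in each cell group, with 1 point per mouse and a bar at the mean over mice; groups with under 10 cells in a mouse are not drawn. The Cartpt-high cells of mice 2 and 3 stand at ratios of 2.67 and 2.87, apart from every other point, and those of mouse 1 at 1.01.

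The ratios of the broader groups were lower once their Cartpt-high cells were set aside. Without them, a choice made after the data were seen, the ratio of Nos1-only cells was 0.795, 0.668 and 0.600 and that of Sox10-positive cells 0.712, 0.666 and 0.609. Within Nos1-only cells, those that were Cartpt-high had 1.34, 2.18 and 2.27 times the nuclear sum of those that were not, and 1.01, 0.543 and 0.547 times the mitochondrial sum.

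The nuclear sum followed the Cartpt value in mice 2 and 3. Cells with no Cartpt UMI had 203.8 and 187.3 nuclear UMIs per 10000 and cells with a value of 3 or more had 521.3 and 554.7. Just below the threshold, at values of 2 to 2.5, the nuclear sums were 314.1, 280.5 and 336.3 in mice 1, 2 and 3, and just above it, at 2.5 to 3, they were 293.2, 413.1 and 409.1. In mouse 1 the cells over 3 had 276.7, less than its cells on either side of the threshold, so the order did not hold from there upwards. Its cells with no Cartpt UMI had 197.7 and those above 0 and under 2 had 217.4, less than all of these. Mitochondrial sums were 153.7, 392.2 and 374.3 just below the threshold, 227.9, 291.0 and 282.7 just above it and 321.7, 157.5 and 156.9 over 3. The ratio of nuclear to mitochondrial UMIs went from 0.715 just below to 1.42 just above and 3.31 over 3 in mouse 2, and from 0.898 to 1.45 and 3.54 in mouse 3. In mouse 1 it went the other way, from 2.04 to 1.29 and 0.860. Nuclear UMIs counted against non-mitochondrial UMIs alone gave 292.0, 507.2 and 534.3 per 10000 in Cartpt-high cells against 214.2, 226.6 and 220.5 in the other cells, so the nuclear difference remained when the mitochondrial transcripts were left out of the total.

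Cell by cell, Cartpt-high cells were split. In mice 2 and 3, 162 and 125 cells had at least 4% of their UMIs in nuclear members and under 2% in mitochondrial members, limits set after the cells were plotted. These cells held 103 of the 153 Cartpt-high cells of mouse 2 (67.3%) and 70 of the 94 of mouse 3 (74.5%), and Cartpt-high cells made up 63.6% and 56.0% of them. Most were Nos1-only (75.3% and 70.4%), few were Chat-only (3.70% and 2.40%), and 0 and 1 had Neurod4. A further 28 and 8 cells lay near the limit, with nuclear shares of 3% to 4%. At the other end, 203 and 173 cells of mice 2 and 3 had at least 5% mitochondrial UMIs, and their nuclear sums were 112.8 and 118.8 per 10000. Their median depths of 7216 and 7017 UMIs were below those of all cells of these mice, and genes not in the table took 7.34% and 8.15% of their UMIs.

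Mouse 1 lacked this pattern but held 8 cells with at least 4% nuclear and under 2% mitochondrial UMIs, all Nos1-only and 4 of them Cartpt-high. Their mitochondrial members summed to only 14.9 UMIs per 10000, against 110.7 and 111.3 in the corresponding cells of mice 2 and 3. As a description across cells, which share libraries and depth, Spearman's rho between the nuclear and mitochondrial shares was 0.05, -0.62 and -0.60 in mice 1, 2 and 3. Without Cartpt-high cells it was 0.08, -0.51 and -0.52. Both shares came from 1 total, and rho was 0.07, -0.60 and -0.58 when mitochondrial UMIs were left out of the total of the nuclear share.

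**Figure D2:**
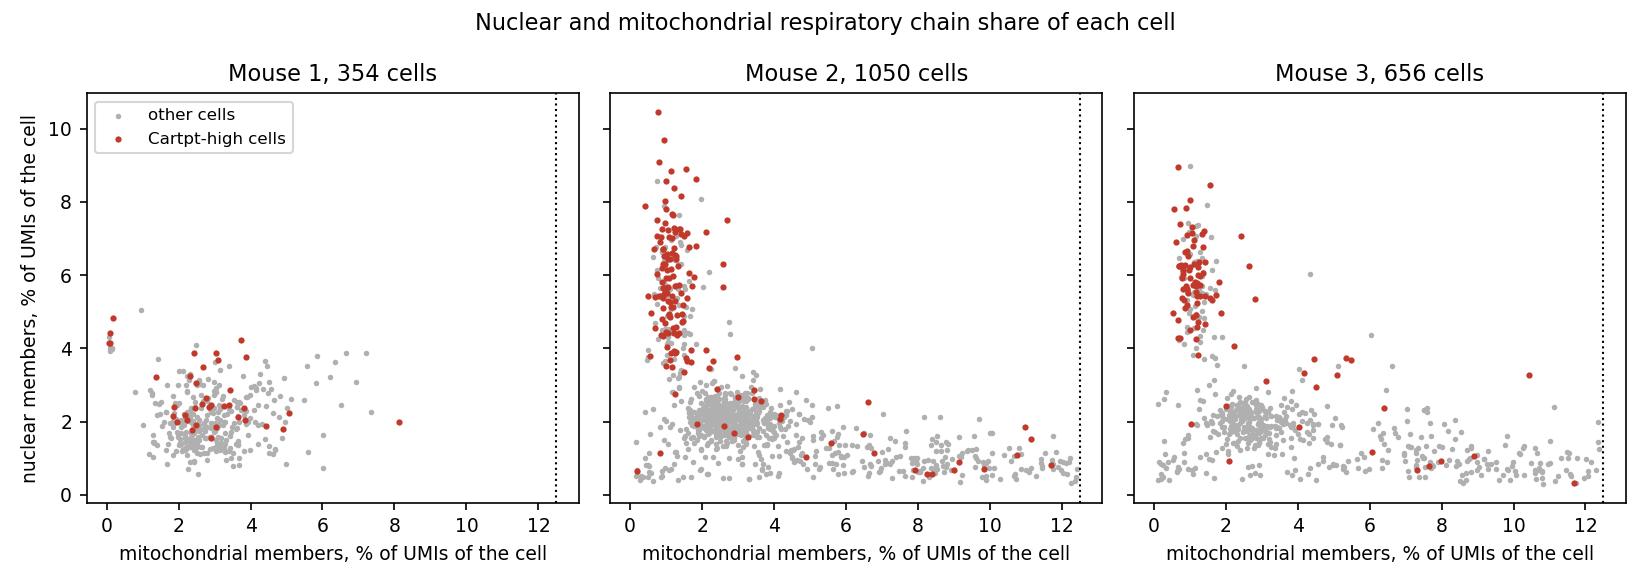
Share of each cell's UMIs in mitochondrial members (x axis, %) and in nuclear members (y axis, %), 1 panel per mouse, with Cartpt-high cells in red, other cells in grey and the limit of the authors' filter dotted. In mice 2 and 3 a set of cells, 162 and 125 above 4% nuclear and below 2% mitochondrial, stands apart from the rest, and most Cartpt-high cells lie in it.

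Depth moved with these sums in mice 2 and 3. With the cells of a mouse split by UMIs into 3 equal classes, lowest first, the mitochondrial sum was 406.3, 352.8 and 279.1 per 10000 in mouse 2 and 448.7, 400.1 and 309.0 in mouse 3, while the nuclear sum was higher only in the deepest class, at 297.7 and 285.5. Cartpt-high cells had a median of 4120, 11370 and 10411.5 UMIs and other cells 3685, 9337 and 9371.5. Among cells of 3000 to 15000 UMIs, the median log2 difference between Cartpt-high and other cells was 0.63 for nuclear and -0.55 for mitochondrial members, against 0.67 and -0.73 among all cells. The part of depth in the group differences was not tested.

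Gene by gene, sums of the cells of each mouse were compared on the log2 scale with limma, with mouse as a block and Benjamini-Hochberg adjustment over all genes tested. In Cartpt-high cells, 31 of the 61 nuclear members tested were higher and 2 lower than in the other cells, where 7.48% of all 6820 genes tested were higher and 15.3% lower (22.8% in all). At an unadjusted p under 0.05, 44 were higher and 2 lower, where 39.6% of all genes passed. The median log2 difference of the nuclear members was 0.67, against -0.19 over all genes. Of the 13 mitochondrial members, 0 were higher and 2 were lower, or 15.4%, near the 15.3% of all genes. At an unadjusted p under 0.05, 8 were lower and 0 higher. All 13 had a negative difference, and their median was -0.73. The counts depended on the mice used, for members as for all genes. With 1 mouse left out, the fit has sums from 2 mice and its p-values lean on a spread estimated over all genes. Such counts are not directly comparable with those from 3 mice, here or in the comparisons below. Without mouse 1, 49 nuclear members were higher and 12 mitochondrial members lower, where 19.5% of all genes were higher and 46.3% lower. Without mouse 2 or mouse 3, 6 and 9 nuclear members were higher and 0 mitochondrial members lower, where 2.12% and 2.37% of all genes were higher. The nuclear median was 0.93, 0.59 and 0.63 without mouse 1, 2 and 3, and the mitochondrial median -1.02, -0.60 and -0.51.

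Complex I, the NADH dehydrogenase, had 21 higher and 1 lower of 37 nuclear members tested. Ndufa3, a small accessory subunit, was at 3.57, 6.76 and 11.8 UMIs per 10000 in the Cartpt-high cells of mice 1, 2 and 3 and at 2.36, 1.67 and 2.66 in the other cells. The groups did not overlap, and the log2 difference was 1.55 ± 0.30 (SE; limma adjusted p = 0.022). Ndufc1, another accessory subunit, was at 6.91, 11.9 and 16.5 against 4.16, 3.34 and 4.14, a log2 difference of 1.5 ± 0.27 (limma adjusted p = 0.019). Again every Cartpt-high value lay above every other value, and that of mouse 1 was the nearest to them.

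Further accessory subunits with large differences were Ndufa11 (log2 difference 1.37 ± 0.25), Ndufa5 (1.37 ± 0.26), Ndufa7 (1.35 ± 0.27) and Ndufv3 (1.24 ± 0.19). Ndufa4 reached 12.53, 32.0 and 37.4 UMIs per 10000 against 9.62, 10.6 and 10.9, a log2 difference of 1.24 ± 0.31; its protein has since been assigned to complex IV, although the symbol groups it with complex I here.

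Ndufs7, a core subunit that carries an iron-sulphur cluster, was at 2.55, 4.4 and 3.42 UMIs per 10000 in Cartpt-high cells and at 1.30, 1.91 and 1.68 in the other cells. The groups did not overlap, and the log2 difference was 1.02 ± 0.15 (limma adjusted p = 0.015).

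Complex II had 1 of 4 members higher. Sdhb, its iron-sulphur subunit, was at 2.78, 4.97 and 5.30 UMIs per 10000 in Cartpt-high cells and at 1.99, 2.12 and 2.09 in the other cells, a log2 difference of 0.98 ± 0.21 (limma adjusted p = 0.024). Sdha, the catalytic flavoprotein, differed by 0.01 ± 0.18 on the log2 scale, and the membrane anchors Sdhc and Sdhd by 0.17 ± 0.22 and 0.31 ± 0.16. The subunits of this complex were thus not called together.

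In complex III, 3 of 8 members were higher: Uqcrq (log2 difference 1.04 ± 0.24), Uqcr11 (1.01 ± 0.22) and Uqcr10 (0.86 ± 0.21), all small subunits. The large core proteins Uqcrc1 and Uqcrc2 had differences of -0.11 ± 0.15 and -0.02 ± 0.18. Complex IV, the cytochrome oxidase, had 6 higher and 1 lower of 12 tested. Cox5b, a nuclear structural subunit, was at 8.22, 18.7 and 20.9 UMIs per 10000 against 5.73, 6.61 and 6.16, a log2 difference of 1.25 ± 0.27 (limma adjusted p = 0.026). Cox8a, Cox6b1, Cox7c, Cox5a and Cox4i1 were also higher, by 0.87 to 1.19 on the log2 scale.

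Lower in Cartpt-high cells were Cox8b and Ndufa4l2. Cox8b, the muscle-type isoform of the smallest oxidase subunit, was at 0.057, 0.196 and 0.154 UMIs per 10000 against 0.133, 0.513 and 0.538, a log2 difference of -0.99 ± 0.21 (limma adjusted p = 0.026). Ndufa4l2, a paralogue of Ndufa4 known for its induction by hypoxia, was at 0.170, 0.767 and 0.519 against 0.415, 1.86 and 1.85, a log2 difference of -1.26 ± 0.19 (limma adjusted p = 0.015). Both were lower within each mouse, though the values of the 2 sides overlapped across mice because mouse 1 had low levels throughout. All cells of mouse 1 together held 19 UMIs of Cox8b and 59 of Ndufa4l2, and 37 of its cells were Cartpt-high. Its Cartpt-high values thus rest on very few UMIs, and that of Cox8b was below the 0.1 added before taking logs. The direction in mouse 1 is therefore weak evidence for either gene.

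**Figure D3:**
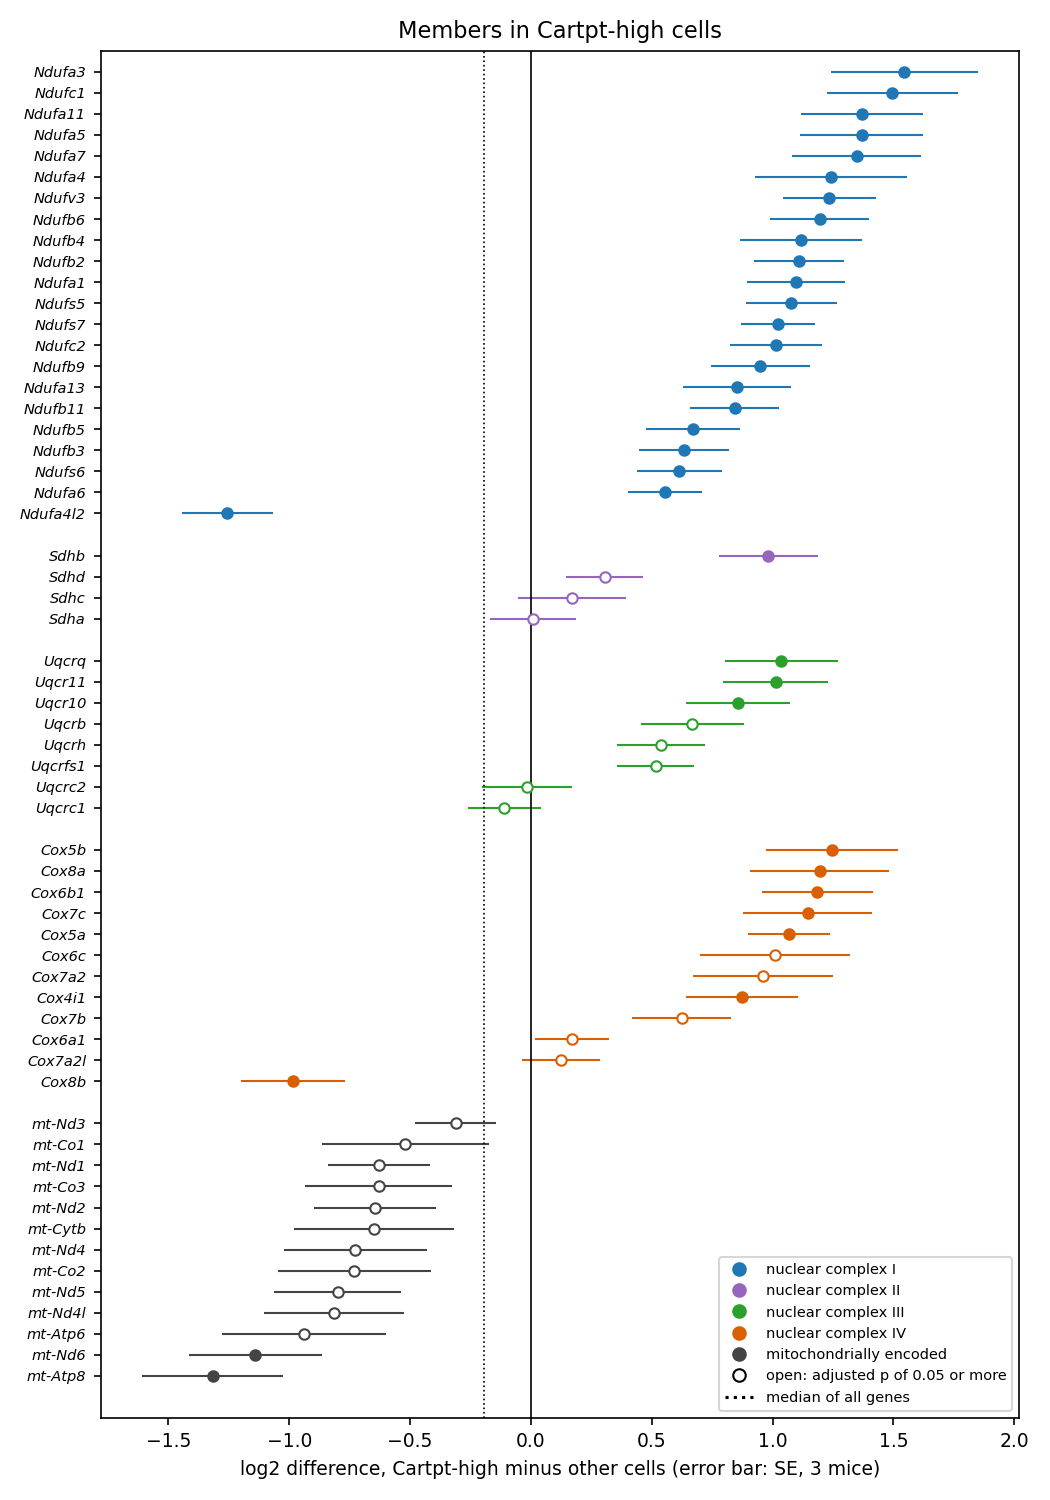
Log2 difference (x axis, Cartpt-high minus other cells) of the complex I members called and of every member tested in the other classes, grouped by complex and genome, with the SE as error bar, filled points for members called by limma and the median of all genes dotted. The nuclear members drawn spread from -1.26 to 1.55 and all 13 mitochondrial members lie between -1.32 and -0.31.

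Transcript length moved with these differences across all genes. Lengths are the median spliced length of the basic protein-coding transcripts of a gene in GENCODE M21, matched for 6760 of the 6820 genes tested, and the length ranges were chosen after the values were seen. Of the 31 nuclear members under 750 bases, 22 were higher in Cartpt-high cells (71.0%), with a median log2 difference of 1.04. Genes of that length outside the respiratory chain were also often higher, 120 of 261 (46.0%), with a median of 0.65. From 750 to under 1500 bases the medians were 0.51 for 20 members and 0.12 for 1099 other genes, and from 1500 to under 3000 bases they were 0.06 for 10 members and -0.20 for 2307 other genes. Among genes of 3000 bases or more, which include no nuclear member, the median was -0.33. The members thus had a higher median than other genes in each of the 3 length ranges they occupy, and the part of length in the result was not tested.

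The neighbouring pathways were described with lists of their genes. Of the nuclear subunits and regulators of the ATP synthase, 9 of 15 tested were higher in Cartpt-high cells and 0 lower, with a median of 0.85. Atp5g2, which encodes the ring subunit c, was at 8.5, 22.2 and 20.4 UMIs per 10000 against 5.46, 8.88 and 7.98, a log2 difference of 1.09 ± 0.23. Of the assembly factors, 8 of 27 were higher, among them the copper chaperone Cox17 (1.17 ± 0.18), and 1 lower, Ttc19 (-0.82 ± 0.17). Of 7 electron carrier genes tested 2 were higher and 0 lower, with a median of -0.07. They were Cycs, the cytochrome c that carries electrons from complex III to complex IV (0.89 ± 0.19), and Coq7, an enzyme of ubiquinone synthesis (0.69 ± 0.15).

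Other metabolic lists had few calls, beside the 7.48% of all genes that were higher, the 15.3% that were lower and the median of -0.19. Of 17 genes of the TCA cycle, 0 were higher and 1 lower, with 1 higher and 3 lower at an unadjusted p under 0.05 and a median of -0.11. The lower gene was Suclg2, which had no UMI in the Cartpt-high cells of mouse 1. Of 16 glycolysis genes, Gapdh (1.11 ± 0.20) and Aldoa (0.72 ± 0.17) were higher and 0 lower, with a median of 0.21. Of 12 mitochondrial carriers and pores, 1 was higher and 0 lower, with a median of 0.30; it was Mpc2, a subunit of the pyruvate carrier (0.75 ± 0.19). Of 5 tested genes of mitochondrial transcription and biogenesis, 0 were higher and Yy1 was lower, by -0.86 ± 0.15 on the log2 scale, with a median of -0.40. Neuron markers summed to 100.7, 91.95 and 85.6 UMIs per 10000 in Cartpt-high cells against 74.6, 69.1 and 66.6 in all cells of the 3 mice. Smooth muscle markers summed to 40.3, 20.4 and 17.4 UMIs per 10000 in Cartpt-high cells and glial markers to 7.76, 16.3 and 14, against 69.8, 15 and 10.3, and 15.5, 13.8 and 11.9, in all cells of the 3 mice. None of the 10 smooth muscle or 10 glial markers was at 0 in any of these sums, and the part of such RNA in the result was not tested.

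Promoter sequences were compared because so many nuclear members were higher together. RefSeq sequences on GRCm38.p6 were matched by symbol for 53 of the 68 nuclear members, and the 250 bases before the start were searched on both strands. The first start listed for each gene was used. For 46 of the 53 the end of the sequence was found in the starting part of a GENCODE M21 transcript, so some windows may be misplaced. The NRF1 motif, GCGCA and GCGC with any 1 base between them, bound by a factor known for its control of respiratory chain genes, was found in 9 of 53 members (17.0%) and in 3.86% of 27025 genes. It was in 5 of the 28 members higher in Cartpt-high cells and in 4 of the 21 not called. The ETS motif CCGGAAG was found in 8 of 53 members (15.1%) and in 7.05% of all genes, and the YY1 motif AAGATGGCG in 0 of 53 and in 0.607%. The ETS motif ends in the AAG with which the YY1 motif begins, and the YY1 motif ends in the GCG with which the NRF1 motif begins, so neighbouring matches can share bases. A match is a description and not a bound site.

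The promoters shown are those of Ndufa11, Ndufb4 and Ndufs5, the members with the largest differences among those that were higher, held the NRF1 motif and started within 100 bases of the annotated gene, and that of Cox8b, which was lower and held none of the 3 motifs. They lie on GRCm38.p6 at chr17:56717512-56717761 (+), chr16:37654369-37654618 (-), chr4:123718187-123718436 (-) and chr7:140900447-140900696 (-), and capitals mark the NRF1 matches.
Ndufa11: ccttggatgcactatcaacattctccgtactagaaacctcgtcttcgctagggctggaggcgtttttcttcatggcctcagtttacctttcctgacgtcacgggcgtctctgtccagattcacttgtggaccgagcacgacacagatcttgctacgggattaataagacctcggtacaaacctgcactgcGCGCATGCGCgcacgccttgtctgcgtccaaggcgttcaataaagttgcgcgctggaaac
Ndufb4: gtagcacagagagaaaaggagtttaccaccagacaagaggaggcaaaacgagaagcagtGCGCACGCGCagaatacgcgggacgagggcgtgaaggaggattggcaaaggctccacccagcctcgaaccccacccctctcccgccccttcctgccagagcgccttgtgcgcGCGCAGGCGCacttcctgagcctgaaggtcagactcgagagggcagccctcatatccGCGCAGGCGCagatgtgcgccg
Ndufs5: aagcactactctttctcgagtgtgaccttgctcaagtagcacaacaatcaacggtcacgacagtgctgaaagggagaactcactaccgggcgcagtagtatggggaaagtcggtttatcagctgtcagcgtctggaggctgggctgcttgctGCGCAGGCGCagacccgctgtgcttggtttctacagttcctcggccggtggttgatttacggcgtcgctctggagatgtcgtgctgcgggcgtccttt
Cox8b: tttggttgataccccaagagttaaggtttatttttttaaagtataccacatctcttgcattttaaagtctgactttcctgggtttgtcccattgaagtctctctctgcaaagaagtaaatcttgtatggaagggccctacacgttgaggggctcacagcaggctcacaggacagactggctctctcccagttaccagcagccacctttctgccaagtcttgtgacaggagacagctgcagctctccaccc

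The 13 mitochondrial genes were measured in every library. Per 10000 UMIs of mice 1, 2 and 3, the oxidase genes mt-Co1, mt-Co2 and mt-Co3 had 71.1, 61.2 and 65.5, then 29.3, 53.4 and 56.0, then 39.8, 32.5 and 37.4. The cytochrome b gene mt-Cytb of complex III had 42.6, 37.8 and 40.3. Of the complex I genes, mt-Nd4 had 20.1, 23.4 and 26.5, mt-Nd1 10.1, 12 and 15.9, mt-Nd2 14.1, 10.4 and 13.9, mt-Nd5 5.22, 6.02 and 6.67, and mt-Nd3 3.79, 3.32 and 5.70. These genes differed by at most 1.91 times between mice.

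The makeup of the mitochondrial UMIs set mouse 1 apart from mice 2 and 3. The ATP synthase genes mt-Atp8 and mt-Atp6 share bases on the same strand, and so do mt-Nd4l and mt-Nd4. Mouse 1 had 13.9 UMIs per 10000 for mt-Atp8, against 4.51 and 6.42 in mice 2 and 3, but 35.0 against 59.4 and 64.4 for mt-Atp6. The order was thus opposite for the 2 genes, and mt-Atp8 took 4.71% of the mitochondrial UMIs in mouse 1 against 1.39% and 1.79%. For mt-Nd4l mouse 1 had 9.45 against 19.9 and 20.6 UMIs per 10000, or 3.20% of mitochondrial UMIs against 6.14% and 5.74%. The gene mt-Nd6, alone on the other strand, had 0.603, 0.182 and 0.265 per 10000, from 92, 188 and 170 UMIs.

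The overlaps are shown because a read that lies wholly within one of them matches both genes. How such reads were counted is not given in the sources used here, and their part in the values of mouse 1 was not tested. On GRCm38 the last 60 bases of mt-Atp8 are chrM:7910-7969 (+), of which 43 in capitals are also the start of mt-Atp6, and the last 30 bases of mt-Nd4l are chrM:10144-10173 (+), of which 7 in capitals are also the start of mt-Nd4.
mt-Atp8: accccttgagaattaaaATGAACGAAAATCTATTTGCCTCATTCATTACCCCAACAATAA
mt-Nd4l: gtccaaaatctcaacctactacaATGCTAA

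The libraries also differed in the genes they named, with 1199 symbols found only in mouse 1 and 2014 found in both other mice but not in mouse 1, and whether 1 annotation served for all libraries is not given in the sources used here. Ndufb1-ps, listed as a long non-coding transcript in GENCODE M21 and called by its symbol a complex I pseudogene, had 851 UMIs in mouse 1 and 0 in mice 2 and 3. Such a member cannot be compared between mice.

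**Figure D4:**
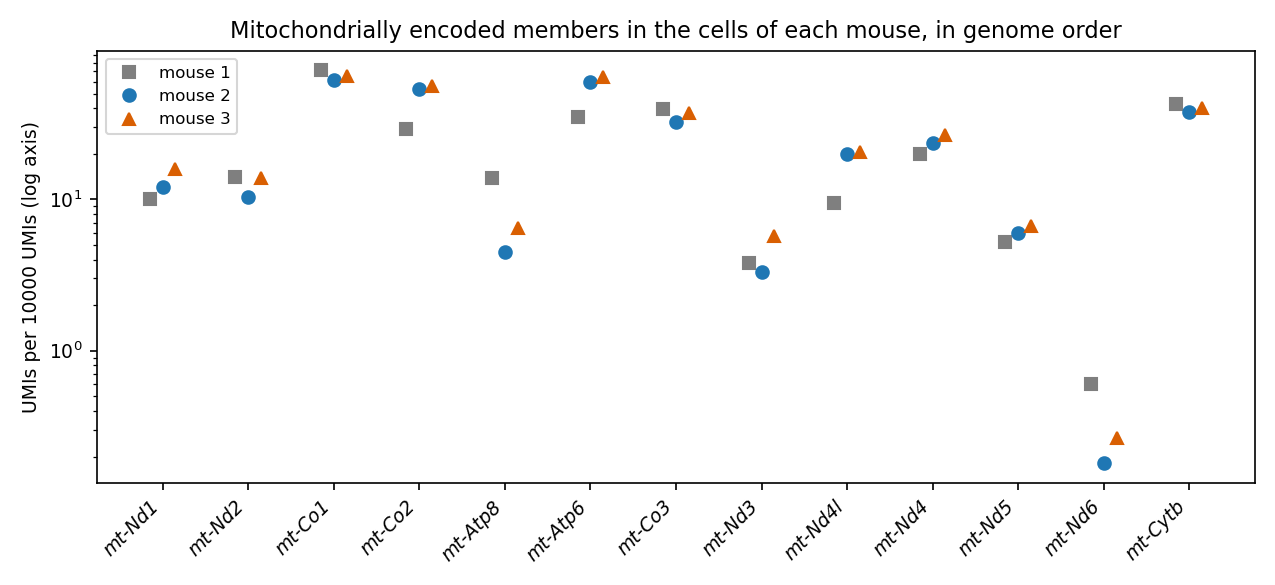
UMIs per 10000 UMIs (y axis, log scale) of the 13 mitochondrially encoded members in all cells of each mouse, in genome order, 1 point per mouse. Mouse 1 lies above mice 2 and 3 for mt-Atp8 (13.9 against 4.51 and 6.42) and below them for mt-Atp6, mt-Co2 and mt-Nd4l.

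In Cartpt-high cells, the mitochondrial members called lower were mt-Atp8 and mt-Nd6. For mt-Atp8 the levels were 10.7, 1.57 and 1.91 UMIs per 10000 against 14.3, 5.13 and 7.29 in the other cells, a log2 difference of -1.32 ± 0.29 (limma adjusted p = 0.026). The value of mouse 1 on the Cartpt-high side exceeded those of mice 2 and 3 on the other side. For mt-Nd6 the Cartpt-high sums held 8, 4 and 3 UMIs, and the log2 difference was -1.14 ± 0.28. The abundant mt-Co1 was at 70.2, 39.9 and 39.8 against 71.2, 65.6 and 70.5, a difference of -0.52 ± 0.35 that did not pass the test, with mouse 1 nearly level and mice 2 and 3 lower.

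Several nuclear subunits have isoforms for particular tissues, and their levels are given beside those of the widely expressed form. Cox4i1 had 8.58, 10.5 and 9.41 UMIs per 10000, whereas its hypoxia- and lung-associated isoform Cox4i2 had 4, 15 and 4 UMIs in all. Cox6a1 had 3.73, 2.60 and 2.81 per 10000 and the muscle isoform Cox6a2 had 1, 2 and 2 UMIs. Cox6b1 had 6.47, 10.0 and 10.0 per 10000 and the testis isoform Cox6b2 0.249, 0.096 and 0.094.

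For the complex IV subunit 7a, Cox7a2 had 8.45, 9.12 and 8.74 UMIs per 10000, Cox7a2l 1.61, 2.29 and 2.02, and the muscle isoform Cox7a1 0.052, 0.076 and 0.081. Cox8a had 15.7, 16.5 and 16 and Cox8b 0.124, 0.459 and 0.476. Cox7b2 had no UMI, and Cox8c had 1 UMI, in mouse 1. The 7 nuclear members that did not reach the limit for testing were Cox4i2, Cox6a2, Cox6b2, Cox7a1, Cox7b2, Cox8c and Ndufb1-ps.

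Neurod4-positive cells differed from the others in the opposite sense for some of the same isoforms. Over mice 2 and 3, 4 of 61 nuclear members tested were higher and 25 lower, where 9.35% of 6864 genes were higher and 17.1% lower (26.5% in all), and 8 of 12 mitochondrial members were lower. The median log2 differences were -0.12 for nuclear and -0.27 for mitochondrial members, against -0.02 for all genes. Neurod4-positive cells of mice 2 and 3 had summed glial markers of 9.40 and 5.17 UMIs per 10000 against 13.8 and 11.9 in all cells, smooth muscle markers of 10.1 and 6.05 against 15 and 10.3, and neuron markers of 54.6 and 59.3 against 69.1 and 66.6. At an unadjusted p under 0.05, 6 nuclear members were higher and 27 lower, where 35.2% of all genes passed. Neurod4-positive cells had a median of 10692 and 12706 UMIs, against 9385 and 9121 in the others. Cells with over 10% mitochondrial UMIs were 0% of them, against 4.65% and 7.57% of the others. Among cells of 3000 to 15000 UMIs 15 nuclear members were lower, where 14.9% of all genes were lower. The nuclear median was then -0.06 and the mitochondrial -0.40. The part of markers, depth and high mitochondrial shares in the result was not tested. The fit has 4 sums from 2 mice, so its very small p-values rest on a spread estimated over all genes.

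Cox8b was at 2.02 and 1.86 UMIs per 10000 in the Neurod4-positive cells of mice 2 and 3 and at 0.350 and 0.331 in the other cells. The groups did not overlap, and the log2 difference was 2.21 ± 0.15 (limma adjusted p = 5.4e-47). Ndufa4l2 was at 3.75 and 4.4 against 1.53 and 1.35, a log2 difference of 1.44 ± 0.11 (limma adjusted p = 1.4e-35). Ndufv3 was also higher, by 0.26 ± 0.10 on the log2 scale. Without mouse 2 or mouse 3 a single pair of sums is left, which allows no test.

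The accessory subunits Ndufa3 (log2 difference -1.06 ± 0.11), Ndufa5 (-0.90 ± 0.10) and Ndufc1 (-0.84 ± 0.10) were lower in Neurod4-positive cells. Ndufa4 was at 9.19 and 8.80 UMIs per 10000 against 14.6 and 15.9, a log2 difference of -0.76 ± 0.09. The comparison cells include all but 1 of the Cartpt-high cells, and when these were left out 4 nuclear members were lower in place of 25, where 12.4% of all genes were lower in place of 17.1%. The nuclear median was then 0.02 and the mitochondrial median -0.43. The difference of Cox4i1 then went from -0.25 to 0.03. Short genes outside the respiratory chain were also low in this comparison, with a median of -0.30 under 750 bases where that of the 31 members was -0.39.

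Among the mitochondrial members, mt-Nd3 was at 2.19 and 4.48 UMIs per 10000 in Neurod4-positive cells against 3.40 and 5.82, a log2 difference of -0.49 ± 0.10. Those of mt-Nd2, mt-Nd4l, mt-Cytb, mt-Co3, mt-Nd4, mt-Nd1 and mt-Atp6 ranged from -0.38 to -0.26. mt-Co1 was nearly level, at 63.1 and 57.6 against 61.0 and 66.3 (-0.08 ± 0.10). In all, 12 of 12 differences were negative, each smaller than those of the leading nuclear members. Genes that are not in the table took 19.6% and 19.5% of the UMIs of Neurod4-positive cells against 14.2% and 14.1% in the others, and with only listed genes as the total 3 mitochondrial members were called lower in place of 8, where 13.2% of all genes were lower in place of 17.1%. The median of the mitochondrial members was then -0.19 against 0.06 over all genes, in place of -0.27 against -0.02.

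Nos1-only cells had 7 higher and 1 lower of 61 nuclear members, where 3.22% of 7070 genes were higher and 1.27% lower (4.5% in all). The median was 0.26 for nuclear and -0.27 for mitochondrial members. Those higher were Ndufa5 (log2 difference 0.58 ± 0.09), Ndufb4 (0.51 ± 0.09), Ndufb2 (0.49 ± 0.08), Cox6b1 (0.46 ± 0.09), Ndufv3 (0.45 ± 0.09), Ndufs5 (0.43 ± 0.08) and Ndufc2 (0.42 ± 0.08). Ndufb2, an accessory subunit of complex I, was at 3.40, 3.77 and 3.9 UMIs per 10000 against 2.48, 2.56 and 2.74, and the groups did not overlap. Among genes under 750 bases, 16.1% of the nuclear members and 14.6% of the other genes were higher, with medians of 0.33 and 0.22.

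Ndufa4l2 was lower in Nos1-only cells, at 0.280, 0.713 and 0.715 UMIs per 10000 against 0.457, 2.77 and 2.41, a log2 difference of -1.33 ± 0.23 (limma adjusted p = 0.029). Of the mitochondrial members, limma called 0 of 13, 11 were lower at an unadjusted p under 0.05, where 23.9% of all genes passed, and voom called 9 as lower, where it called 8.02% of all genes lower. Without Cartpt-high cells 0 nuclear members were called in either direction, where 2.7% of all genes were called, and the nuclear median was 0.08 in place of 0.26. The count of higher members was 37 without mouse 1, where 14.2% of all genes were higher, and 0 without either mouse 2 or mouse 3, where 1.8% and 1.35% were higher. It was 2 without cells with smooth muscle markers, where 2.68% of all genes were higher. A gate of 2 UMIs left 3, where 4.81% of all genes were higher. The nuclear median was 0.24 and 0.22 in these 2 alternatives.

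Chat-only cells had the reverse signs, but limma called 0 of 61 nuclear and 0 of 13 mitochondrial members, as it called 0% of all 7123 genes. At an unadjusted p under 0.05, 26 nuclear members were lower and 1 higher and 5 mitochondrial members higher, where 14% of all genes passed. By voom 41 nuclear members were lower and 1 higher, and 12 mitochondrial members higher, where 11.2% of all genes were lower and 19.2% higher. The medians were -0.37 for nuclear and 0.28 for mitochondrial members, with 54 of 61 differences negative and 13 of 13 positive. Under 750 bases the median was -0.41 for the nuclear members and -0.38 for other genes. The sum of mouse 1 rests on 16 cells, and without that mouse limma called 40 nuclear members lower, where 10.4% of all genes were lower and 12.6% higher. Smooth muscle markers summed to 19.2, 6.25 and 7.63 UMIs per 10000 in Chat-only cells against 69.8, 15 and 10.3 in all cells, glial markers to 11.04, 8.91 and 6.10 against 15.5, 13.8 and 11.9, and neuron markers to 102.8, 73.7 and 71.0 against 74.6, 69.1 and 66.6. Cells with over 10% mitochondrial UMIs were 6.08% and 13.3% of Chat-only cells in mice 2 and 3, against 4.10% and 5.71% of the others, and 0% of both in mouse 1. The part of these differences in the result was not tested.

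Ndufa4l2 was at 0.605, 3.86 and 3.29 UMIs per 10000 in Chat-only cells and at 0.377, 1.31 and 1.29 in the others, a log2 difference of 1.12 ± 0.21 (limma adjusted p = 0.18). It was higher in each of the 3 mice, with overlap between the groups because of the low level in mouse 1. All cells of mouse 1 together held 59 UMIs of this gene, so the value of its 16 Chat-only cells rests on very few UMIs. Direct comparison of Nos1-only with Chat-only cells gave -1.74 ± 0.30 for this gene (limma adjusted p = 0.0997). There limma called 0 members, where it called 0.226% of 7079 genes (0.0989% higher and 0.127% lower), while 29 nuclear members were higher, 1 nuclear lower and 10 mitochondrial lower at an unadjusted p under 0.05, where 15.9% of all genes passed. The corresponding counts by voom were 42, 1 and 12, where 12.6% of all genes were higher and 19.7% lower. Without mouse 1 limma called 41 nuclear members higher, where 12.1% of all genes were higher. With Cartpt-high cells left out, the nuclear median was 0.23 in place of 0.46 and the mitochondrial median -0.28 in place of -0.40. Under 750 bases the median log2 difference was 0.50 for the nuclear members and 0.43 for other genes. In Nos1-only cells smooth muscle markers summed to 30.4, 18.3 and 11.7 UMIs per 10000 and glial markers to 13.3, 14.6 and 11.7, all above the sums given for Chat-only cells, and their part in this comparison was not tested.

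For mt-Atp6, the levels were 30.5, 53.3 and 56.4 UMIs per 10000 in Nos1-only and 37.0, 73.9 and 86.1 in Chat-only cells, a log2 difference of -0.45 ± 0.11 (limma adjusted p = 0.17). It was lower in Nos1-only cells of each mouse, and the groups overlapped between mice.

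In Sox10-positive cells the calls were among mitochondrial members. Of 61 nuclear members limma called 0, where it called 10.6% of 7094 genes, 5.44% higher and 5.16% lower. There were 2 higher and 1 lower at an unadjusted p under 0.05, where 26.3% of all genes passed. Voom called 1 nuclear member higher and 2 lower, where it called 9.4% of all genes higher and 14.1% lower. The nuclear sum was 0.882, 1.09 and 1.32 times that of the other cells in mice 1, 2 and 3. With Cartpt-high cells left out of the Sox10-positive side only, it was 0.842, 0.863 and 1.02 times. With them left out of both sides, the nuclear median was -0.005 in place of 0.085. Without mouse 1 limma called 16 nuclear members higher and 2 lower, where 10.8% of all genes were higher and 16.2% lower. Of 13 mitochondrial members 5 were lower, and 11 at an unadjusted p under 0.05. These were mt-Nd4l (log2 difference -0.47 ± 0.10), mt-Nd5 (-0.39 ± 0.09), mt-Atp8 (-0.39 ± 0.10), mt-Nd2 (-0.39 ± 0.09) and mt-Nd4 (-0.38 ± 0.10).

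The level of mt-Nd4l was 8.05, 16.9 and 17.6 UMIs per 10000 in Sox10-positive cells against 10.5, 24.2 and 25.2 in the others. It was lower in each mouse, with overlap between mice. The median depth was 3709, 10720.5 and 10072.5 UMIs in Sox10-positive cells against 3734.5, 9599.5 and 9578.5 in all cells. The part of depth was not tested. Without cells with smooth muscle markers, 0 mitochondrial members were called lower in place of 5, where 3.02% of all genes were lower, and their median was -0.27 in place of -0.35. The count was 9 without mouse 1, where 16.2% of all genes were lower, and 1 without either mouse 2 or mouse 3, where 1.63% and 4.76% were lower.

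**Figure D5:**
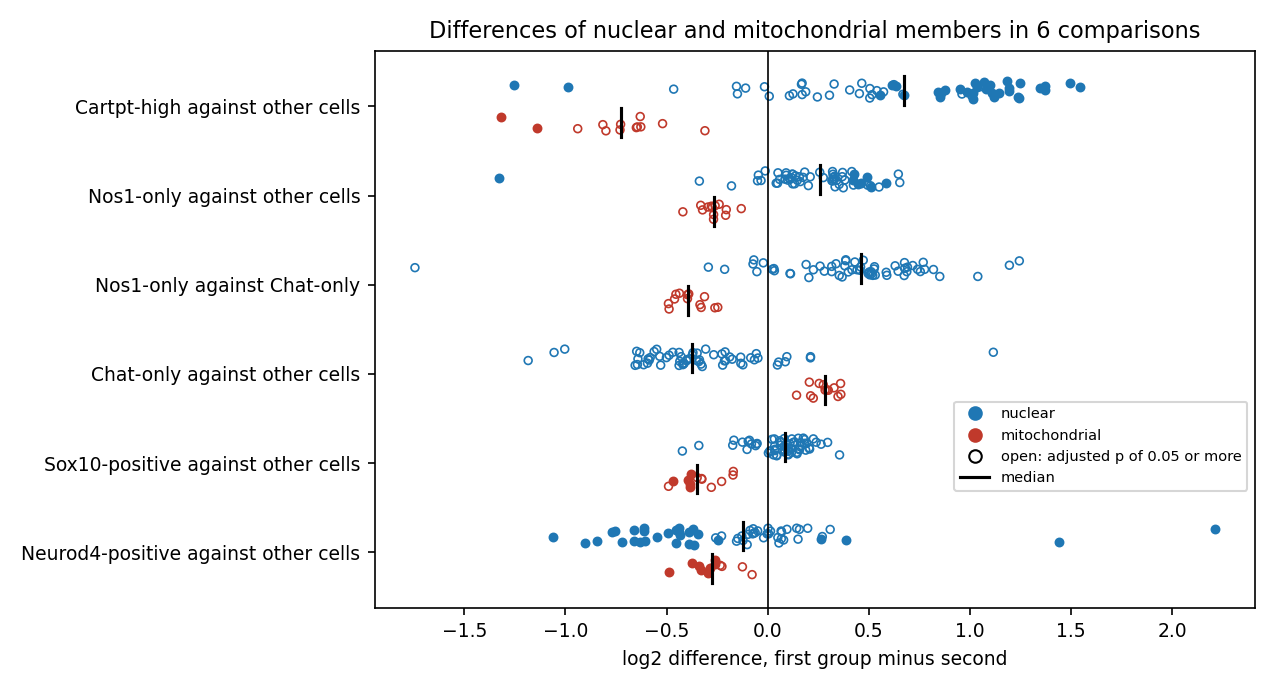
Log2 difference (x axis, first group minus second) of every member tested in the 6 comparisons, nuclear in blue and mitochondrial in red, with filled points for members called by limma and a bar at the median. The nuclear median is 0.67 and the mitochondrial -0.73 in Cartpt-high cells, and both are below 0 in Neurod4-positive cells.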

How the data were processed

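Single cell libraries were made from sorted cells of 3 mice and processed with Cell Ranger on mm10, per the submitters' processing notes. The annotation is not given in the sources used here. The authors filtered cells, merged the mice, removed genes held to be confounding (no symbol of the Rpl or Rps series was among the rows used) and deposited for the neurons the natural log of 1 plus the UMIs per 10000 UMIs of a cell. Whole UMIs were recovered by taking the smallest value above 0 of a cell as 1 UMI, and 100% of values came out whole within 1e-06. Totals include genes not in the table, 12.2% to 14.6% of UMIs per mouse. The 0 columns outside the sample list needed no removal.

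Because the deposited unit is a log, the main fit used no count model. An alternative, voom in limma, used the recovered UMIs of each sum with weights from their mean-variance trend. UMIs were summed per mouse and group, and log2(UMIs per 10000 + 0.1) was tested with limma 3.58.1 in R 4.3.3 (trended empirical Bayes, mouse as a block because both sums come from the same animal, called at an adjusted p under 0.05). Genes needed 1 UMI in every mouse and a mean of 0.2 per 10000, the 5 gating genes were left out, and a mouse with under 10 cells on a side was left out. Cells are not replicates. p-values rest on the spread between 3 mice (2 for Neurod4-positive cells and wherever a mouse was left out), moderated over all genes. Data were read with Python 3.11.15. The fit was tested on simulated data, where recovery of set changes differed between comparisons and was poorest in both Chat-only comparisons. A lack of calls there does not show a lack of difference. Doublets were not called, and an alternative leaves out the 5% of cells with most UMIs. Named were members called, up to 10 with the largest differences, all mitochondrial members, isoform pairs and complex II. Members, groups and gene lists were chosen with earlier results of these data known. Lengths and positions came from GENCODE M21 (GRCm38), possibly not the annotation used for counting. Values of 1 member are not reported here.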

Additional observations from a re-analysis of the deposited data

How the results depend on the processing

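Of 355 values of counts and levels under alternatives, 242 stayed close to the reported value (a count within 1.5 times it, a level or ratio within 1 SD between mice) and 113 moved, and of the differences of single genes 961 kept their call, 320 lost it and 1 changed sign. The cause of these changes was not tested. Without the replicate block, 4 nuclear members were higher and 0 lower in Cartpt-high cells, 2 and 12 in Neurod4-positive cells and 0 and 0 in Nos1-only cells, and 0 mitochondrial members were lower in Cartpt-high, Neurod4-positive or Sox10-positive cells. Calls over all genes fell as well, to 1.98% higher and 4.63% lower in Cartpt-high, 2.36% and 6% in Neurod4-positive, 0.325% and 0.0141% in Nos1-only and 0% in Sox10-positive cells, while the medians of the members were the same with and without the block. By voom, 47 nuclear members were higher in Cartpt-high, 27 in Nos1-only, 1 in Chat-only and 1 in Sox10-positive cells and 42 in Nos1-only against Chat-only, 2, 41, 2 and 1 were lower in Nos1-only, Chat-only and Sox10-positive cells and in Nos1-only against Chat-only, and 9, 9, 10 and 12 mitochondrial members were lower in Cartpt-high, Nos1-only and Sox10-positive cells and in Nos1-only against Chat-only, with 12 higher in Chat-only cells. Of all genes, voom called 15.3% higher and 33.1% lower in Cartpt-high, 9.52% and 8.02% in Nos1-only, 19.2% and 11.2% in Chat-only and 9.4% and 14.1% in Sox10-positive cells and 12.6% and 19.7% in Nos1-only against Chat-only. With a gate of 2 UMIs (Cartpt at 3), 16 nuclear members were higher and 1 lower in Cartpt-high and 3 higher in Nos1-only cells. At this gate 1 was higher and 39 lower in Chat-only cells, and 41 higher and 1 lower in Nos1-only against Chat-only. Only 2 cells of mouse 1 had 2 or more Chat UMIs, so the rule on under 10 cells also left mouse 1 out of both Chat-only comparisons. Their counts thus changed with the gate and with the mice used at once. Mitochondrial members lower were then 0, 1, 1 and 10 in Cartpt-high, Nos1-only and Sox10-positive cells and in Nos1-only against Chat-only, 10 were higher in Chat-only cells, and the ratio of Neurod4-positive cells was 0.770. Of all genes, 3.75% were then higher and 7.85% lower in Cartpt-high, 4.81% and 2.91% in Nos1-only, 13.1% and 11% in Chat-only and 5.64% and 5.36% in Sox10-positive cells and 13.1% and 16% in Nos1-only against Chat-only.

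With no filter on the mean, 20 nuclear members were higher in Cartpt-high and 2 in Neurod4-positive cells, and 1, 1 and 2 mitochondrial members lower in Cartpt-high, Neurod4-positive and Sox10-positive cells, where 2.25% and 4.12%, 2.13% and 7.22%, and 3.14% and 2.31% of all genes were higher and lower. With a filter at 1 UMI per 10000, 11 nuclear members were higher in Nos1-only cells and 2 in Nos1-only against Chat-only, 0 and 1 lower in Cartpt-high cells and in Nos1-only against Chat-only, and 1, 5, 5 and 9 mitochondrial members lower in Cartpt-high, Neurod4-positive, Nos1-only and Sox10-positive cells. Of all genes, 22.8% were then higher and 16.5% lower in Cartpt-high, 15.7% and 20.7% in Neurod4-positive, 10.1% and 2.79% in Nos1-only and 6.63% and 9.98% in Sox10-positive cells and 2.82% and 2.48% in Nos1-only against Chat-only. With listed genes as the total, 7 nuclear members were higher in Neurod4-positive cells, where 12.7% of all genes were higher. Mitochondrial members lower numbered 3, 1 and 2 in Neurod4-positive, Nos1-only and Sox10-positive cells, where 13.2%, 1.58% and 3.75% of all genes were lower. The sums were then 288.8 nuclear and 378.8 mitochondrial. A pseudocount of 0.5 left 0 nuclear members lower in Nos1-only cells, where 1.09% of all genes were lower. Means over cells gave 4 nuclear members higher in Nos1-only cells, where 3.08% of all genes were higher. They gave 1 mitochondrial member lower in Sox10-positive cells, where 4.4% of all genes were lower. The ratios were then 0.702 for Neurod4-positive and 0.830 for Nos1-only cells. In cells of 3000 to 15000 UMIs 15 nuclear members were lower in Neurod4-positive cells, where 14.9% of all genes were lower. The ratios were then 0.824 and 0.738 in Nos1-only and Sox10-positive cells. Without the deepest cells 16 nuclear members were lower in Neurod4-positive cells, where 12.3% of all genes were lower. In Sox10-positive cells 1 mitochondrial member was then lower, where 4.86% of all genes were lower. The ratios of Nos1-only and Sox10-positive cells were 0.842 and 0.758. Cells in exactly 1 group had ratios of 0.759, 0.590 and 0.623 for Neurod4-positive, Nos1-only and Sox10-positive. Without smooth muscle marker cells 2 nuclear members were higher in Nos1-only cells, where 2.68% of all genes were higher. In Cartpt-high cells 1 nuclear and 1 mitochondrial member were then lower, where 9.65% of all genes were lower. In Sox10-positive cells 0 mitochondrial members were lower, where 3.02% of all genes were lower. Without Sox10-positive cells the mitochondrial sum was 365.6.

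In alternatives chosen after seeing the data, 1 nuclear member was lower in Cartpt-high cells within Nos1-only cells, where 9.09% of all genes were lower. Without Cartpt-high cells 0 nuclear members were higher and 0 lower in Nos1-only cells, where 1.99% of all genes were higher and 0.711% lower. Then 4 were lower in Neurod4-positive cells, where 12.4% of all genes were lower and Cox4i1 went to 0.0326. In Sox10-positive cells 8 mitochondrial members were then lower, where 5.89% of all genes were lower. The nuclear sum was then 212.8, and the ratios of Nos1-only and Sox10-positive cells were 0.687 and 0.662. Leaving out 1 mouse at a time, nuclear members higher numbered 6 to 49 in Cartpt-high, 0 to 37 in Nos1-only, 0 to 1 in Chat-only and 0 to 16 in Sox10-positive cells and 0 to 41 in Nos1-only against Chat-only, and lower 1 to 4, 0 to 3, 2 to 40, 0 to 2 and 1 to 1. Mitochondrial members lower numbered 0 to 12 in Cartpt-high, 0 to 9 in Nos1-only and 1 to 9 in Sox10-positive cells and 0 to 9 in Nos1-only against Chat-only, and 0 to 3 were higher in Chat-only cells. Over all genes, the share higher ranged from 2.12% to 19.5% in Cartpt-high, 1.35% to 14.2% in Nos1-only, 0.42% to 12.6% in Chat-only and 3.71% to 10.8% in Sox10-positive cells and 0.55% to 12.1% in Nos1-only against Chat-only, and the share lower from 3.46% to 46.3%, 0.506% to 15.7%, 1.01% to 10.4%, 1.63% to 16.2% and 0.423% to 14.9%. The nuclear sum ranged from 239.6 to 264.7, the mitochondrial from 309.5 to 341.8, and the ratio from 1.84 to 2.77 in Cartpt-high, 0.898 to 0.982 in Nos1-only, 0.461 to 0.613 in Chat-only, 0.827 to 0.920 in Sox10-positive and 0.711 to 0.741 in Neurod4-positive cells. The median depth was 3734.5 UMIs per cell in mouse 1 against 9599.5 and 9578.5 in mice 2 and 3, and 16 Chat-only cells of mouse 1 entered the sums.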
